A study of Mus musculus with 11 samples.

Results

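Mesenchymal cells cultured from the lungs of E15 mouse embryos that lacked both copies of Sp3 were compared with cells from embryos that had kept 1 copy. The members are the 3 libraries labelled Sp3-/- and the 4 libraries labelled Sp3+/-, 7 of the 11 libraries in the series, and the 13978 genes with a CPM (counts scaled to a common library total) above 1 in at least 1 of the 7, of 24062 genes with a row in the files. The remaining 4 libraries are wild type (WT) and did not enter the comparison, so that Sp3+/- was a control group independent of WT. The cells had been isolated by their adhesion to plastic and passaged before RNA was taken. Embryos of all genotypes came from matings of Sp3+/- mice, and no group carried another named allele or received an agent. Libraries are called by the numbers in their titles. Sp3-/- libraries are 685-1, 697-2 and 697-5, and Sp3+/- libraries are 468-3, 685-5, 685-7 and 697-4, and values are given in this order.

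Sp3 is a zinc finger transcription factor of the Sp family that, like its close relative Sp1, binds GC-rich promoter elements called GC boxes. It is made in nearly all cells and can raise or lower transcription of its targets. The fetal lung mesenchyme holds the precursors of airway and vascular smooth muscle, myofibroblasts, lipofibroblasts and pericytes. It lays down the elastic and collagenous matrix, and it signals to the branching epithelium through secreted factors such as Fgf10.

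The number of reads on genes ranged from 9849111 to 45630738 in the Sp3-/- and from 13842791 to 59297495 in the Sp3+/- libraries. Levels are log2 CPM and differences are log2 fold changes of Sp3-/- over Sp3+/-, with the standard error (SE) of the edgeR fit. A gene is called changed at an adjusted p below 0.05 (quasi-likelihood test of edgeR, Benjamini-Hochberg adjusted over all genes tested). The labels do not say which embryos or cultures share an origin beyond the title number, so that p-values measure the spread between these libraries. On the first principal component, which held 63.0% of the variance, the Sp3-/- libraries lay between 37.0 and 73.3, and 3 of the Sp3+/- libraries between -65.2 and -47.6. Sp3+/- library 697-4 stood apart from its group at -3.04. All 3 Sp3-/- libraries and 697-4 have no suffix to their titles, whereas 468-3 has the suffix 2 and 685-5 and 685-7 have the suffix 3. The labels do not explain the suffix. The name under which the counts of 697-4 were deposited carries a 2 that its title lacks, and if that is its suffix, the suffix and the genotype cannot be told apart at all. With the suffix as a covariate the comparison becomes, in effect, the 3 Sp3-/- libraries against 697-4, which is assumed to vary like the others. No gene was called in that fit (edgeR), against 2287 at an unadjusted p below 0.05, and changes in it are given below as changes against 697-4 alone. Xist, which marks female cells, was high only in 697-5 (8.80) and 685-5 (9.27), and the Y-linked Ddx3y was high in the other 5 libraries (6.41 to 7.22), so each group held 1 library with a female pattern. As these are bulk samples, fewer cells of a type and less RNA per cell cannot be told apart.

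Sp3 itself was lower in every Sp3-/- library. Its level was 4.21, 4.19 and 3.90 in Sp3-/- and 5.71, 5.97, 6.14 and 5.82 in Sp3+/- cells, and 697-4 was among its own group. The log2 fold change was -1.81 (SE 0.14, adjusted p = 0.00171, edgeR), so that Sp3 was 3.51-fold higher in Sp3+/- cells. It kept its call in 7 of 7 leave-one-out fits (each without 1 library) and was -1.71 against 697-4 alone. Reads are counted per gene, and which exons gave the reads that remained in Sp3-/- cells was not analysed here. On a scale set with all 11 libraries, Sp3 was 6.38 ± 0.35 (SD, n = 4) in WT, 5.91 ± 0.19 (SD, n = 4) in Sp3+/- and 4.10 ± 0.18 (SD, n = 3) in Sp3-/- cells. Sp1 was 7.35, 7.41 and 7.22 against 7.01, 7.14, 7.19 and 7.16, which did not overlap but did not pass the test (log2 fold change 0.20, SE 0.09, adjusted p = 0.122, edgeR), although DESeq2 gave an adjusted p of 0.0486. Of the 6 Sp family genes tested, Sp3 was the only one called.

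The promoters of 3 genes with different outcomes are shown, since GC boxes are the element that Sp3 is known to bind. Each is the 250 bases before the 1 start that the RefSeq promoter table (GRCm38.p6) gives for the gene, printed 5′ to 3′ on the strand of the gene. For Tgfb2 and Axin2 this start lies inside the annotated span of the gene, so that the bases before the outermost start are not shown. Capitals mark the motif GGGCGG on either strand. The longer motif GGGGCGGGG contains it and is not counted apart. Ccne1 encodes cyclin E1, which drives the entry into S phase and which was lower in Sp3-/- cells, and chr7:38107491-38107740 on the minus strand held 4 matches. Tgfb2 encodes a transforming growth factor ligand that was also lower, and chr1:186705990-186706239 on the minus strand held 0. Axin2 is a feedback inhibitor of Wnt signalling that was higher, and chr11:108920099-108920348 on the plus strand held 2.
Ccne1: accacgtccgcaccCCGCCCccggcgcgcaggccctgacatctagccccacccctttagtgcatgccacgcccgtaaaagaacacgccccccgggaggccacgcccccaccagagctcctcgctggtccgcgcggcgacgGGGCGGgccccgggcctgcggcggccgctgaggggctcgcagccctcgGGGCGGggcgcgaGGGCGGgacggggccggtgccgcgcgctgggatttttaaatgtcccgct
Tgfb2: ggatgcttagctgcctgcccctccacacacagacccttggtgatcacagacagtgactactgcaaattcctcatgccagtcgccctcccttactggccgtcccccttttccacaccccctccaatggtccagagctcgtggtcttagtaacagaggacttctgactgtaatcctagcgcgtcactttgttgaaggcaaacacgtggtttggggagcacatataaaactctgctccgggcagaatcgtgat
Axin2: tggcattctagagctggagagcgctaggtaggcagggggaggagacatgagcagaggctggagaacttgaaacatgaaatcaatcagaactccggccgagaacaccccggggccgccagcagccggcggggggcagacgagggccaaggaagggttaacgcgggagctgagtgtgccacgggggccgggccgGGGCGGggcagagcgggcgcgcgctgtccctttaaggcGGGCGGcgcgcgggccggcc
Of all 32851 promoters of this length in the table, 32.7% held the motif, and 10.4% held the longer one. Among the 11103 matched to a tested gene the shares were 63.1% and 22.3%, so that a match is common in the promoters of genes these cells express. Only 79.4% of the genes tested could be matched to a promoter, and the shares among called and other genes were not compared here. A match is a description of the letters and does not show binding.

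Ccne1 measured 3.44, 3.77 and 3.46 in Sp3-/- and 4.87, 4.70, 4.82 and 4.27 in Sp3+/- cells. The groups did not overlap, and the log2 fold change was -1.12 (SE 0.17, adjusted p = 0.00816, edgeR). Tgfb2 measured 4.80, 4.75 and 4.60 against 6.14, 6.42, 6.36 and 6.09, a log2 fold change of -1.54 (SE 0.11, adjusted p = 0.00171, edgeR), with 697-4 close to the other Sp3+/- libraries. Axin2 measured 4.25, 3.89 and 4.89 against 1.89, 2.39, 1.78 and 2.17, a log2 fold change of 2.32 (SE 0.27, adjusted p = 0.00335, edgeR), and again 697-4 sat within its group. All 3 genes kept their calls in the 7 leave-one-out fits, and against 697-4 alone the changes were -0.70, -1.37 and 2.24. On the 11-library scale Tgfb2 was 6.39 ± 0.21 (SD, n = 4) in WT and 6.25 ± 0.16 (SD, n = 4) in Sp3+/- cells. For Axin2 the levels on that scale were 1.11 ± 0.42 (SD, n = 4) in WT, 2.06 ± 0.27 (SD, n = 4) in Sp3+/- and 4.34 ± 0.51 (SD, n = 3) in Sp3-/- cells. The WT libraries were not tested here.

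**Figure D1:**
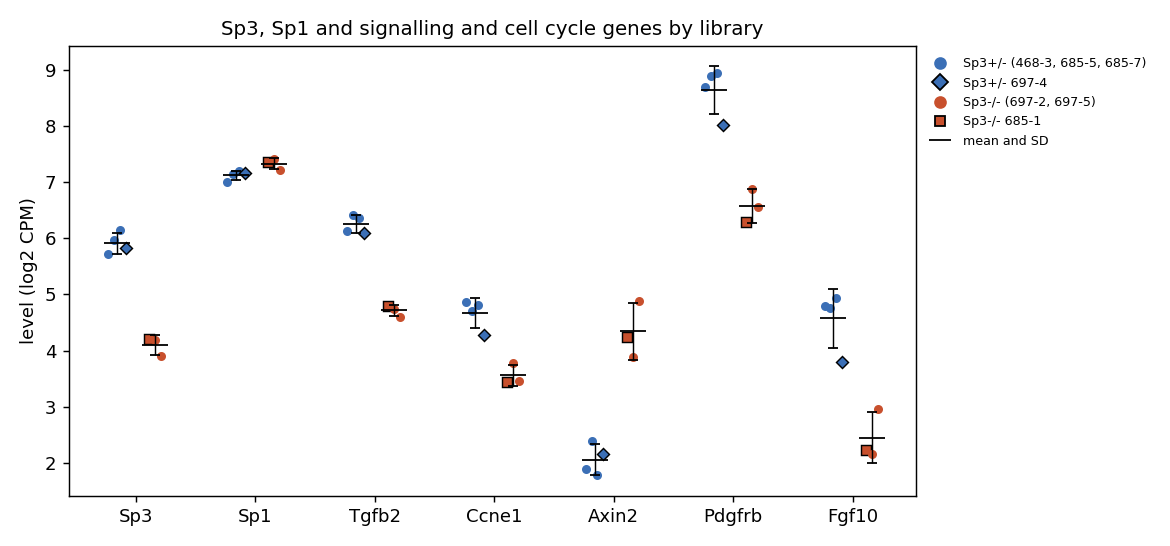
Level of 7 genes (log2 CPM, vertical axis) in each library, Sp3+/- in blue and Sp3-/- in orange, with the mean and SD of each group as black bars. Sp3, Tgfb2, Ccne1, Pdgfrb and Fgf10 were lower and Axin2 higher in the 3 Sp3-/- libraries with no overlap, and the Sp1 levels lay within 7.01 to 7.41 in all 7.

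Across the transcriptome, 3227 of the 13978 genes (23.1%) were called. Of these, 1619 (11.6%) were higher and 1608 (11.5%) lower in Sp3-/- cells, and 817 (5.84%) were called and more than 2-fold higher and 747 (5.34%) called and more than 2-fold lower. The levels of the genotypes did not overlap for 4782 genes (34.2%). The split depended on the scaling, since upper quartile factors gave 1310 higher and 1986 lower. The median change of all genes was 0.01. With libraries left out, the count moved by more than 1.5 times without 697-2 (924), 685-7 (1049), 685-5 (1188), 468-3 (1711) and 697-5 (2131). Without 697-4 it was 3590.

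The contractile genes of smooth muscle were lower in Sp3-/- cells. Of 18 tested, 15 were called lower and 0 higher, beside 11.5% of all genes called lower, with a median log2 fold change of -1.73. Myh11 is the myosin heavy chain of smooth muscle (chr16:14194527-14292188, GRCm38.p6). It measured 5.60, 6.35 and 4.56 in Sp3-/- and 9.63, 9.81, 10.26 and 10.05 in Sp3+/- cells. No Sp3-/- library came near the Sp3+/- range, and the level was 19.3-fold higher in Sp3+/- cells (log2 fold change -4.27, SE 0.44, adjusted p = 0.00269, edgeR). Actg2, the enteric smooth muscle actin (chr6:83512909-83536251), was 6.49, 7.15 and 6.17 against 10.32, 10.42, 10.93 and 10.81 (log2 fold change -3.98, SE 0.30, adjusted p = 0.00171, edgeR). Cnn1, the actin-binding calponin (chr9:22099221-22109221), was 6.04, 6.32 and 5.21 against 9.48, 9.53, 9.83 and 9.91 (log2 fold change -3.77, SE 0.29, adjusted p = 0.00171, edgeR). In all 3 of these genes 697-4 was inside or above the range of the other Sp3+/- libraries.

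Acta2, α-smooth muscle actin, fell by 2.27 on the log2 scale (SE 0.33, adjusted p = 0.00661, edgeR). Its levels were 10.90, 10.52 and 9.53 against 12.61, 12.44, 12.75 and 12.93. Tpm2 and Myl9, a tropomyosin and a myosin light chain, had log2 fold changes of -2.35 and -2.13, and Lmod1, an actin nucleator of smooth muscle, -2.20. Myocd, the coactivator that drives this gene programme, was low in both groups but was -0.33, -0.68 and -0.35 against 1.05, 2.00, 2.13 and 1.53 (log2 fold change -2.31, SE 0.34, adjusted p = 0.00722, edgeR). It passed the CPM limit only through Sp3+/- libraries. Its DNA-binding partner Srf was 5.31, 5.45 and 5.31 against 5.37, 5.31, 5.55 and 5.52, and was not called (log2 fold change -0.08, adjusted p = 0.554, edgeR). The other uncalled members were Des, a muscle intermediate filament protein (-0.57), and Smtn, a smoothelin (-0.16). Averaged over the 18 genes, the level was 7.67, 7.60 and 7.08 in Sp3-/- and 9.11, 9.23, 9.45 and 9.41 in Sp3+/- cells. Against 697-4 alone the median change was -1.80. Within title number 685 it was -1.29 and within 697 it was -2.01, with 1 or 2 libraries of a genotype in each and no test. Between 11 and 15 genes were called lower when single libraries were left out.

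**Figure D2:**
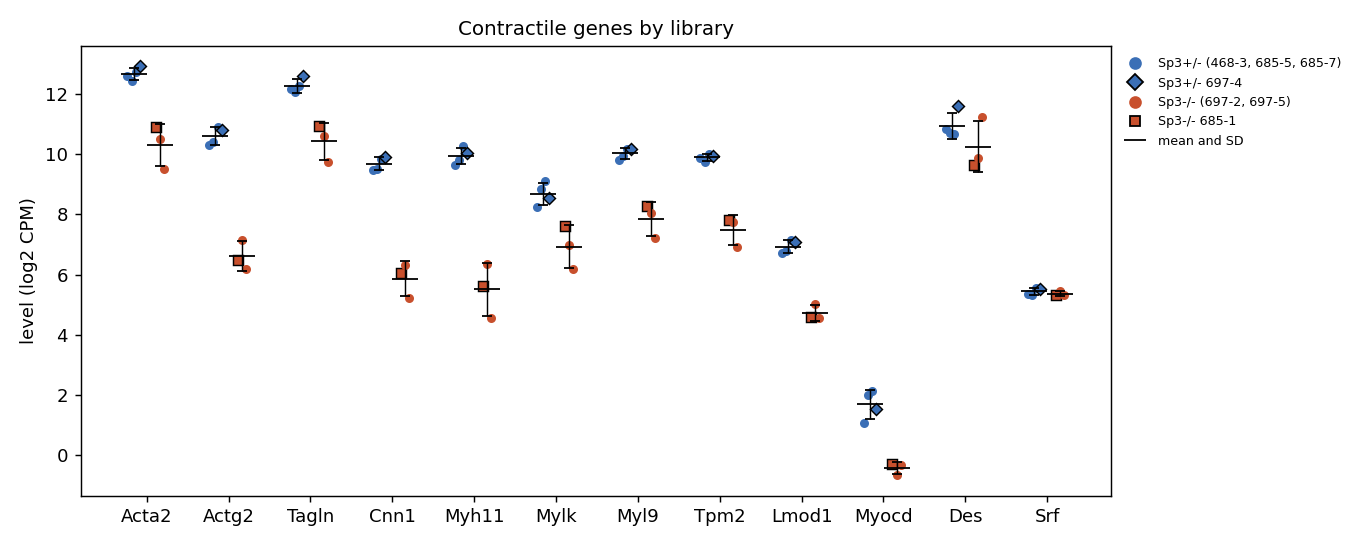
Level of 12 contractile genes (log2 CPM, vertical axis) in each library, with the mean and SD of each group as black bars. Except for Des and Srf, all Sp3-/- points (orange) lie below all Sp3+/- points (blue), and 697-4 (blue diamond) lies with its own group.

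Elastic fibre genes were lower as well. Of 22 genes for elastic fibres and for the enzymes that cross-link them, 14 were called lower and 0 higher (median -1.36). Eln, which encodes elastin, measured 4.51, 5.35 and 0.38 in Sp3-/- and 9.23, 9.60, 9.30 and 6.41 in Sp3+/- cells. The lowest value was 12 counts in 697-5, and 697-4 was the lowest of the Sp3+/- libraries. The change of -4.56 had an SE of 1.15 (adjusted p = 0.0301, edgeR) and kept its call in 2 of 7 leave-one-out fits, with the highest adjusted p of 0.0742 without 685-7 (edgeR). Mfap4, a microfibril protein, was 0.21, 1.26 and -0.35 against 4.07, 4.58, 4.19 and 2.17 (log2 fold change -3.41, SE 0.64, adjusted p = 0.0140, edgeR). Loxl2 and Loxl4, lysyl oxidases that cross-link collagen and elastin, had log2 fold changes of -1.80 and -2.46. For Loxl2, 697-4 (10.77) was at the level of the other Sp3+/- libraries (10.29, 10.70 and 10.83), and the Sp3-/- libraries were at 8.88, 8.94 and 8.78. Fbn1, which encodes the fibrillin scaffold of microfibrils, fell by 1.64 (SE 0.22, adjusted p = 0.00526, edgeR), and the latent TGF-β binding proteins Ltbp1, Ltbp2 and Ltbp3 had changes of -1.95, -1.55 and -0.56. The fibulin-like Efemp1 measured -0.01 and was not called. The list averaged 6.43, 6.53 and 5.91 in Sp3-/- and 7.96, 7.98, 7.89 and 7.11 in Sp3+/- cells, and its median was -0.66 against 697-4 alone. The number called lower was 9 without 685-5, 685-7 or 697-2 and 17 without 697-4.

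Collagen genes went both ways. Of 22 chains, 7 (31.8%) were called lower and 3 (13.6%) higher, beside 11.5% and 11.6% of all genes (median -0.59). Col6a3, a chain of microfibrillar collagen VI, was 1.67, 2.94 and 0.59 against 4.56, 5.46, 6.53 and 5.44 (log2 fold change -3.56, SE 0.65, adjusted p = 0.0128, edgeR). The partner chains Col6a1 and Col6a2 were not called, at 0.40 and -0.01. Col10a1, Col19a1, Col11a1 and Col12a1 had log2 fold changes of -3.85, -2.66, -2.47 and -2.23, and Col5a1 and Col5a2, chains of the fibril-initiating collagen V, -1.45 and -1.29. In the Sp3-/- libraries Col10a1 rested on 17, 18 and 2 counts, and without 697-2 it was not called (adjusted p = 0.0609, edgeR). Col10a1 and Col19a1 passed the CPM limit only through Sp3+/- libraries, so the count of falls among the chains depends in part on the filter. The genes called higher were Col15a1 (2.08) and Col18a1 (1.46), which encode collagens of the basement membrane zone, and Col5a3 (0.87). The main fibrillar chains did not pass. Col1a1 measured 12.66, 12.02 and 10.63 against 12.90, 12.99, 13.03 and 12.41, where 697-5 was the lowest and 685-1 overlapped the Sp3+/- range. Col3a1 measured 0.11 (adjusted p = 0.892, edgeR).

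Among 25 matrix glycoproteins and proteoglycans, 10 were called lower and 0 higher (median -0.61), and 6 were called lower without 685-5, 685-7 or 697-2. Aspn, a small leucine-rich proteoglycan (chr13:49544443-49567565, GRCm38.p6), showed the largest fall among the genes named by rule. Its levels were -0.60, 1.21 and -0.79 in Sp3-/- and 5.02, 5.16, 5.80 and 2.96 in Sp3+/- cells (log2 fold change -4.71, SE 0.82, adjusted p = 0.0113, edgeR). It kept its call in 7 of 7 leave-one-out fits by edgeR, but limma-voom gave an adjusted p of 0.0568, and the change against 697-4 alone was -2.61. Tnc, the adhesion-modulating tenascin C, was 9.08, 9.84 and 9.27 against 11.46, 11.72, 11.92 and 11.23 (log2 fold change -2.17, SE 0.25, adjusted p = 0.00335, edgeR). Lama2, a laminin chain, fell by 2.15 and Nid1, the nidogen that joins laminin to collagen IV, by 1.62 on the log2 scale. Ogn, which encodes osteoglycin, fell by 2.60 and was not called without 685-5, 685-7 or 697-2, with an adjusted p of 0.0601 in the last of these (edgeR). Fn1, fibronectin, passed in none of the leave-one-out fits (log2 fold change -0.81, adjusted p = 0.131 with all 7, edgeR). Thbs2, an antiangiogenic matricellular protein, was 5.73, 6.40 and 4.93 against 7.94, 8.21, 8.32 and 5.75, so that 697-4 was at the level of 685-1. It did not pass (log2 fold change -2.02, adjusted p = 0.0518, edgeR).

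Of 20 proteases of the matrix and their inhibitors, 5 were called higher and 2 lower (median 0.11), beside 11.6% and 11.5% of all genes. Mmp8, a collagenase known from neutrophils, was 4.04, 4.07 and 3.78 against 0.09, 1.05, 0.40 and 0.77, with a narrow spread in both groups. Its log2 fold change was 3.37 (SE 0.25, adjusted p = 0.00170, edgeR), it passed in all 7 leave-one-out fits, and it was 3.25 against 697-4 alone. Mmp13, Mmp19, Timp1 and Timp3 rose by 1.95, 1.20, 0.92 and 1.03. Timp3 lost its call without 468-3, 685-5, 685-7 or 697-2, with a highest adjusted p of 0.0711 (edgeR). The genes called lower were the membrane-type Mmp16 (-1.76) and Mmp11 (-1.15), and without 697-2 no gene of the list was called lower.

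Among the ligands and receptors by which the mesenchyme sends and receives signals, 21 FGF and PDGF pathway genes were tested. Of these, 7 (33.3%) were called higher and 6 (28.6%) lower, beside 11.6% and 11.5% of all genes. The counts became 3 and 3 without 685-5, 685-7 or 697-2. Fgf10, the ligand that directs lung bud outgrowth (chr13:118714699-118792573, GRCm38.p6), was 2.23, 2.15 and 2.97 in Sp3-/- and 4.80, 4.76, 4.93 and 3.80 in Sp3+/- cells (log2 fold change -2.19, SE 0.33, adjusted p = 0.00780, edgeR). Fgf7, another ligand of the epithelial receptor, fell by 1.84. Fgf1 rose by 1.97 (SE 0.25, adjusted p = 0.00441, edgeR). Spry4, Dusp6 and Etv5, which are induced by FGF and ERK signalling, rose by 1.29, 1.32 and 1.08, whereas Spry1, Spry2 and Etv4 of the same kind were not called (-0.92, 0.54 and -0.11).

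Pdgfrb, the receptor of mural cells and their precursors, was 6.28, 6.88 and 6.56 against 8.69, 8.89, 8.93 and 8.01 (log2 fold change -2.08, SE 0.26, adjusted p = 0.00419, edgeR). Its ligands Pdgfb and Pdgfd had opposite changes. Pdgfb was 3.65, 4.53 and 4.17 against 2.19, 1.99, 1.5 and 2.39 (log2 fold change 2.14, SE 0.27, adjusted p = 0.00456, edgeR). Pdgfd was 4.10, 4.00 and 4.05 against 5.16, 5.34, 5.31 and 5.31, with little spread in either group (log2 fold change -1.24, SE 0.09, adjusted p = 0.0017, edgeR). Pdgfra ranged from 3.39, in 697-4, to 7.18, in 468-3, and was not called (adjusted p = 0.558, edgeR).

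In the TGF-β pathway 2 of 15 genes were called higher and 2 lower (median -0.18), near the shares of all genes (11.6% and 11.5%). Besides Tgfb2, the gene that fell was Eng, the coreceptor endoglin, at 4.35, 4.34 and 4.67 against 6.13, 6.01, 6.03 and 5.69 (log2 fold change -1.52, SE 0.14, adjusted p = 0.00230, edgeR). Tgfb1 and the receptor gene Tgfbr2 rose, by 1.27 and 0.78. Among the leave-one-out fits, Tgfb1 was called only without 685-1 and without 697-4, and its adjusted p without 697-2 was 0.0804 (edgeR). Among 21 BMP pathway genes, 4 fell and 2 rose. Id4, an inhibitor of helix-loop-helix factors, was 0.98, 1.24 and 1.09 against 2.95, 3.67, 3.51 and 3.01 (log2 fold change -2.25, SE 0.24, adjusted p = 0.00297, edgeR). The receptor gene Bmpr1b fell by 1.80, Smad9 by 1.05 and the antagonist gene Chrdl1 by 1.93, whereas the decoy receptor gene Bambi rose by 1.23 and Bmp6 by 0.97. Chrdl1, at 4 to 74 counts, passed the CPM limit only through Sp3+/- library 685-5 and was not tested without it. It kept its call in 2 of 6 leave-one-out fits (adjusted p = 0.126 without 697-2, edgeR), so the count of falls depends in part on the filter. Id1, Id2 and Id3, the usual readouts of BMP signalling, were not called (0.12, 0.73 and -0.74).

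Of 14 Wnt ligands and secreted antagonists tested, 3 fell and 1 rose (21.4% and 7.14%, beside 11.5% and 11.6% of all genes). Wnt2b and Wnt5a, both ligands of the lung mesenchyme, fell by 1.05 (SE 0.14, adjusted p = 0.00495, edgeR) and 0.99 (SE 0.15, adjusted p = 0.00753, edgeR), and the antagonist gene Frzb by 2.33 (SE 0.47, adjusted p = 0.0167, edgeR). Wnt4 was higher by 1.25 (SE 0.23, adjusted p = 0.0137, edgeR). Without 697-2, Frzb and Wnt4 were just above the threshold (adjusted p = 0.0575 and 0.0512, edgeR). Rspo2, a secreted amplifier of Wnt signalling (chr15:43020788-43171594, GRCm38.p6), was among the 12 largest falls, at 0.76, 1.01 and -0.17 against 5.08, 4.65, 4.70 and 2.39 (log2 fold change -3.83, SE 0.66, adjusted p = 0.0110, edgeR). Of 11 feedback targets of β-catenin tested, Axin2 was the only one called (9.09% higher, beside 11.6% of all genes). Lef1, Nkd1, Rnf43 and Znrf3 measured 0.52, -0.16, -0.41 and -0.13. In the hedgehog response, 3 of 9 genes (33.3%) were called, all lower, beside 11.5% of all genes called lower. They were Gli2 (-1.75), Foxf1 (-1.59) and the coreceptor gene Boc (-0.72). Gli2, which overlapped between the groups, kept its call only without 697-4, Foxf1 in 3 of 7 leave-one-out fits, and Ptch1 and Gli1, the direct targets of the pathway, were not called (-0.43 and -0.82).

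Transcription factors of the lung mesenchyme were lower as a group, with 11 of 22 called lower and 1 higher (median -1.19). Hoxa5, needed for normal lung patterning, was 3.48, 4.56 and 4.56 against 6.10, 6.07, 6.10 and 5.82 (log2 fold change -1.76, SE 0.26, adjusted p = 0.00756, edgeR). Tbx2 and Tbx5 fell by 1.35 and 1.19, and Tbx3 had a change of -0.91 that did not pass, as did Tbx4 (adjusted p = 0.0782 and 0.0560, edgeR). Foxf1, which responds to hedgehog signalling, was lowest in 685-1 (2.78), at 3.67 and 4.71 in the other Sp3-/- libraries, and at 5.20 to 5.62 in the Sp3+/- libraries. Prrx1, Snai2 and Osr1 fell by 2.62, 1.69 and 1.79. The gene called higher was Zeb2 (0.93), and its relative Zeb1 fell by 0.84. Tcf21 was 3.92, 3.58 and 2.39 against 3.10, 3.79, 2.83 and 1.38 and was not called. Against 697-4 alone the median of the list was -0.78, and 7 to 14 genes were called lower in the leave-one-out fits.

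Of 33 genes that the study itself discusses, 18 were called lower and 8 higher, and since they were chosen on libraries of this series they are not independent evidence. Pericyte markers followed the same direction, and 5 of 7 were called lower, which became 3 in 6 of the leave-one-out fits and 6 without 697-4. Mcam was 6.0, 5.79 and 5.40 against 8.15, 8.31, 8.60 and 9.22 (log2 fold change -2.88, SE 0.30, adjusted p = 0.00277, edgeR). Here 697-4 was the highest of all libraries. Notch3, which maintains mural cells, fell by 1.03 (SE 0.10, adjusted p = 0.00231, edgeR). Cspg4, the NG2 proteoglycan, was 4.81, 5.53 and 4.85 against 7.47, 6.60, 6.65 and 5.37, so that 697-4 lay below 697-2 (log2 fold change -1.59, adjusted p = 0.0436, edgeR), and it lost its call in 6 of 7 leave-one-out fits. Itga8, an integrin of contractile interstitial fibroblasts, was 4.92, 5.54 and 5.15 against 7.59, 8.22, 8.45 and 7.18 (log2 fold change -2.72, SE 0.34, adjusted p = 0.00441, edgeR). Kit, a receptor tyrosine kinase, was -0.18, 0.91 and -0.01 against 5.31, 4.40, 3.93 and 2.21 (log2 fold change -4.01, SE 0.76, adjusted p = 0.0143, edgeR). The remaining genes among the 12 largest falls were the matrix gene Adamtsl3 (-3.73), Nsg1 (-3.51) and Plac8 (-3.18).

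Of 25 genes of G2 and mitosis, 11 were called lower and 0 higher (median -1.09), and of 24 DNA replication genes, 3 were called lower and 2 higher (median -0.42), close to the 11.5% and 11.6% of all genes. Cdc20, an activator of the anaphase-promoting complex, was 3.07, 2.71 and 1.71 in Sp3-/- and 4.62, 4.53, 4.57 and 3.34 in Sp3+/- cells (log2 fold change -1.72, SE 0.40, adjusted p = 0.0249, edgeR). Foxm1, which drives mitotic transcription, fell by 1.24. Mki67, Top2a and Cdk1 had changes of -0.77, -0.95 and -0.67 that did not pass (adjusted p = 0.159, 0.129 and 0.0699, edgeR). The mitotic list averaged 3.50, 3.54 and 2.41 in Sp3-/- and 4.73, 4.51, 4.60 and 3.57 in Sp3+/- cells, with 697-4 close to 685-1 and 697-2. Its median was -0.25 against 697-4 alone. The number called fell to 0 without 685-7 or 697-2, to 1 without 468-3 or 685-5 and to 2 without 697-5, and it was 17 without 697-4. In the replication list Rrm2, a ribonucleotide reductase subunit, and Gins2, of the replicative helicase complex, fell by 1.31 and 1.07, while Pcna, the sliding clamp, and Cdt1, a licensing factor, were higher by 0.69 and 0.49. None of the 24 replication genes was called without 468-3, 685-5 or 685-7.

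Among 21 regulators of G1, 5 fell and 2 rose (23.8% and 9.52%, beside 11.5% and 11.6% of all genes). Besides Ccne1, the D-type cyclin genes Ccnd3 and Ccnd2 were lower. Ccnd3 was 6.12, 6.05 and 6.30 against 6.90, 6.78, 6.61 and 6.80 (log2 fold change -0.62, SE 0.10, adjusted p = 0.00923, edgeR), and it passed in all leave-one-out fits. Ccnd2 fell by 0.64 and Ccnd1 was not called (-0.11). E2f1, which activates S phase genes, measured -0.31 at an adjusted p of 0.0498 (edgeR), and it passed in none of the leave-one-out fits. The repressor E2f7 fell by 1.49, and E2f4 and Rbl2, both repressors of resting cells, were higher by 0.34 and 0.31. No G1 regulator was called higher with upper quartile factors, with every gene that had a count, or without 685-5, 685-7 or 697-2. Of 14 CDK inhibitors and p53 axis genes, 2 rose and 1 fell (14.3% and 7.14%, beside 11.6% and 11.5% of all genes). The stress-induced Gadd45a rose by 0.80 (SE 0.10, adjusted p = 0.00483, edgeR), Cdkn2a by 0.90 and Cdkn2d fell by 0.61. Cdkn2a, which encodes p16 and p19ARF, was 7.49, 7.15 and 7.42 against 6.04, 6.51, 5.95 and 7.07. Cdkn2d kept its call in 2 of 7 leave-one-out fits. Cdkn2a kept its call only without 697-4 (adjusted p = 0.117 without 468-3, edgeR). Cdkn1a, p21, was not called (-0.10, adjusted p = 0.702, edgeR).

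The genes that rose most included many of macrophages. All 14 macrophage markers were called higher, beside 11.6% of all genes, with a median log2 fold change of 2.83. Their CPM summed to 3829, 13291 and 12410 in the Sp3-/- libraries, to 439, 683, 769 and 3568 in the Sp3+/- libraries, and to between 718 and 4085 in the 4 WT libraries. The sum in 697-4 was thus close to that in 685-1. Csf1r, the receptor of macrophage colony-stimulating factor, was 7.45, 8.87 and 8.52 against 4.41, 5.20, 4.79 and 7.21 (log2 fold change 2.53, SE 0.71, adjusted p = 0.0414, edgeR). Mrc1, the mannose receptor, was 6.31, 8.31 and 7.43 against 3.64, 4.31, 4.08 and 5.41 (log2 fold change 3.05, SE 0.56, adjusted p = 0.0128, edgeR). With 468-3, 685-5, 685-7, 697-2 or 697-5 left out, 1 of the 14 markers was still called, which was Mrc1. Of the 12 largest rises named by rule, Ms4a7, Itgal, Wfdc17, Clec4d, Apoe, Ms4a6d, Cd300a and Slc11a1 are known from macrophages and other myeloid cells, with changes between 3.28 and 3.64. Ms4a7 and Ms4a6d kept their calls in 4 of 7 leave-one-out fits and the other 6 in 2.

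Of the remaining rises, Aqp5, a water channel, was 6.55, 6.07 and 7.30 against 3.89, 3.25, 2.90 and 3.11, with 697-4 among the lower values (log2 fold change 3.41, SE 0.34, adjusted p = 0.00248, edgeR). Npy, a neuropeptide, was 3.84, 5.67 and 6.09 against 0.51, 1.06, 1.64 and 2.95 (log2 fold change 3.66, SE 0.69, adjusted p = 0.0141, edgeR). Crct1, a cysteine-rich protein, rose by 3.79 and was highest in 697-5 at 6.39, against 3.70 and 3.95 in 685-1 and 697-2. Without 685-7, Npy and Crct1 did not pass (adjusted p = 0.0519 and 0.0557, edgeR).

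Of 19 lipid genes tested, 8 were called higher and 3 lower (median 0.66), with 0 called higher without 685-7 or 697-2, 1 without 685-5 or 697-5 and 3 without 468-3. The genes called higher included Cd36, a fatty acid receptor (2.86), Lpl, lipoprotein lipase (2.15), Fabp4 and Fabp5 (2.49 and 1.79), Apoe (3.43) and the droplet coat gene Plin2 (1.67). Fabp4 overlapped between the groups, at 5.01 in 685-1 and 5.21 in 697-4. The regulator gene Cebpa was 5.22, 6.80 and 6.92 against 2.65, 2.89, 2.75 and 4.79 (log2 fold change 2.92, SE 0.65, adjusted p = 0.0220, edgeR). Pparg did not pass (1.39, adjusted p = 0.0561, edgeR). Macrophages also express Cd36, Lpl, Apoe, Plin2 and Fabp4, and the macrophage sum was highest in 697-2 and 697-5, as was each of these genes. The part of macrophages in these changes was not tested. The genes called lower encode enzymes of fatty acid synthesis and desaturation, Fasn (-0.83), Scd1 (-1.33) and Scd2 (-1.56). Scd1 was 7.15, 6.68 and 7.02 against 8.39, 8.44, 8.52 and 7.68.

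Since 685-1 and 697-4 had similar macrophage sums, their levels are set side by side. The pair and the genes were chosen after the values were seen, and 1 library of each genotype allows no test. Levels in 685-1 and 697-4 were 7.59 and 7.44 for Cd36, 7.81 and 7.35 for Lpl, 11.12 and 10.54 for Apoe, and 8.13 and 7.90 for Plin2, and thus close. They were far apart for Myh11 (5.60 and 10.05), Cnn1 (6.04 and 9.91) and Mcam (6.0 and 9.22). The same held for Axin2 (4.25 and 2.17), Mmp8 (4.04 and 0.77) and Aqp5 (6.55 and 3.11). Genes that are no macrophage markers were close as well, among them Thbs2 (5.73 and 5.75), Cdk1 (4.94 and 4.79) and Cdc20 (3.07 and 3.34), and the macrophage marker Mrc1 was not (6.31 and 5.41).

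**Figure D3:**
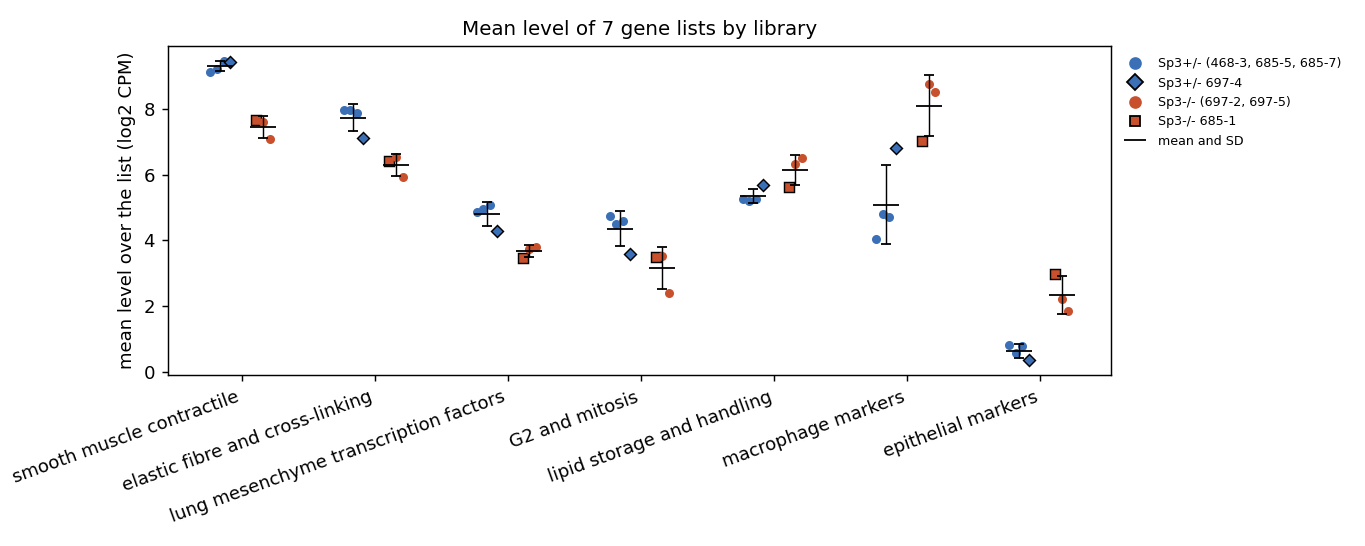
Mean level of 7 gene lists (log2 CPM averaged over the genes tested, vertical axis) in each library, with the mean and SD of each group as black bars. 697-4 (blue diamond) is with its own group for contractile and epithelial genes, and for the other 5 lists it lies apart from the other Sp3+/- libraries, towards the Sp3-/- libraries.

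Iron and complement genes were also higher in part. Of 18 heme and iron genes, 4 (22.2%) were called higher, beside 11.6% of all genes, and 0 lower (median 0.22). None was called without 685-5, 685-7 or 697-2. The 4 genes were the iron exporter gene Slc40a1 (2.24), the ferritin gene Fth1 (1.97) and the biliverdin reductase genes Blvrb (1.81) and Blvra (0.89). Fth1 overlapped between the groups, at 11.23 in 685-1 and 11.26 in 697-4. The enzymes of heme synthesis Alad, Urod and Fech measured between 0.02 and 0.24 and were not called. The CPM of the heme and iron list summed to 6288, 9050 and 16863 in Sp3-/- and to 4003, 2665, 2650 and 6002 in Sp3+/- libraries. Here and in the macrophage sums given above, 697-2 and 697-5 were highest, followed by 685-1 and then 697-4. The order of 697-2 and 697-5 differed between the sums, as did that of 468-3, 685-5 and 685-7. Macrophages are known for iron recycling, and their part in these changes was not tested. Of 16 complement and chemokine genes, Serping1, the C1 inhibitor, was 9.07, 8.18 and 7.48 against 6.33, 6.95, 6.12 and 5.31 (log2 fold change 2.10, SE 0.46, adjusted p = 0.0205, edgeR), with 697-4 the lowest library. Cxcl14 and Il33 rose by 1.70 and 1.57, and Cxcl14 overlapped between the groups, at 2.83 in 685-1 and 3.07 in 697-4. The chemokine gene Cxcl12 was 8.10, 7.86 and 6.47 against 9.45, 10.00, 10.02 and 8.86 (log2 fold change -2.02, SE 0.44, adjusted p = 0.0213, edgeR). Serping1 and Cxcl12 each kept their call in 4 of 7 leave-one-out fits, Cxcl14 in 2. Of 14 imprinted growth genes, Grb10 and Ndn were called, both lower (-1.21 and -0.54), a share near the 11.5% of all genes, and neither was called without 468-3, 685-5, 685-7 or 697-2. Igf2 was 6.06, 7.56 and 6.84 against 8.99, 8.37, 8.23 and 4.91, so 697-4 was below all other libraries, and it was not called.

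The cultures of both groups carried the markers of mesenchyme, at different levels. Their CPM summed to 19471, 13083 and 7223 in Sp3-/- and to 21782, 22222, 21758 and 15036 in Sp3+/- libraries. In 697-2 and 697-5 the macrophage sums given above were higher than these sums. Vim was 10.96 to 11.08 in Sp3-/- and 11.39 to 11.49 in Sp3+/- libraries, and 4 of 11 mesenchyme markers were called lower, namely Vim (-0.40), Thy1 (-1.16), Pdgfrb and Foxf1, of which 1 was left without 468-3, 685-5, 685-7 or 697-2. Epithelial markers were low, and their CPM summed to 190, 98.2 and 66.5 in Sp3-/- and 57.1, 50.0, 36.6 and 35.8 in Sp3+/- libraries. Of 8 tested, 4 were called higher. Cdh1, E-cadherin, had 211, 112 and 51 counts in the Sp3-/- and 3, 15, 13 and 4 in the Sp3+/- libraries (log2 fold change 4.16, SE 0.37, adjusted p = 0.00199, edgeR), and Epcam had 43, 27 and 10 against 2, 7, 5 and 2 counts (2.96, SE 0.42, adjusted p = 0.00586, edgeR). The lung epithelial genes Nkx2-1, Sftpc and Sftpb had at most 14 counts in any library and were under the CPM limit. Cdh1 and Epcam passed that limit only through Sp3-/- libraries, so the count of rises among the 8 depends in part on the filter. Of the 4 called higher, 2 were called without 685-5, 685-7 or 697-2. Of 9 endothelial markers, Cdh5 (3.75), Pecam1 (2.70) and Esam (1.29) were called higher and Erg (-3.04) lower. Here Cdh5 and Pecam1 passed the CPM limit only through Sp3-/- libraries and Erg only through Sp3+/- libraries. Cdh5 was highest in 685-1 (156 counts) and had 46 and 6 counts in the other Sp3-/- libraries and 0 to 10 in the Sp3+/- libraries, and Cldn5 had 2 counts in 685-1 and 0 elsewhere. Without 685-1, 685-5 or 685-7 no endothelial marker was called, and Erg (6, 7 and 2 against 26, 85, 97 and 3 counts) was low in 697-4 as well. Mesothelial markers were present in all libraries. Upk1b and Wt1 were called higher (1.26 and 0.86), and Msln was 10.97, 10.03 and 8.39 against 8.33, 9.35, 8.48 and 7.81. The hemoglobin genes Hba-a1, Hbb-bs and Hbb-bt had 0 counts in all 7 libraries, and Alas2 was not called. The part of these other cell types in the changes was not tested.

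**Figure D4:**
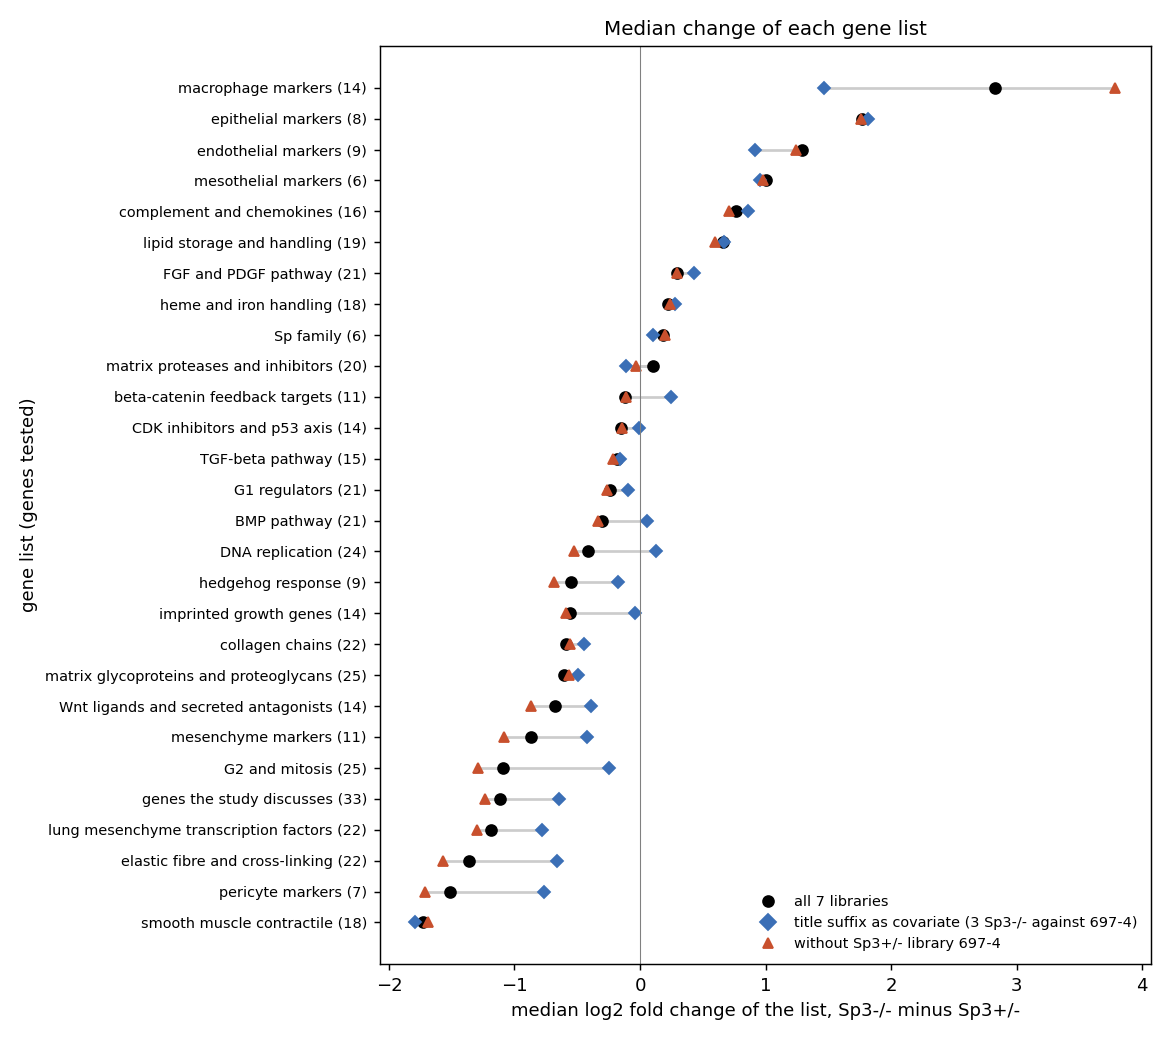
Median log2 fold change of each gene list (horizontal axis, Sp3-/- minus Sp3+/-) with all 7 libraries (black), with the title suffix as a covariate (blue) and without Sp3+/- library 697-4 (orange). The number of genes tested is in parentheses. The contractile median lay between -1.80 and -1.69 in the 3 fits, whereas the macrophage median ranged from 1.46 to 3.79 and the mitotic median from -1.29 to -0.25.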

How the data were processed

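RNA-seq counts of 7 cultures (3 Sp3-/- and 4 Sp3+/-) were analysed. The authors made TruSeq libraries from 10 ng of RNA, sequenced single end reads, checked them with FastQC 0.10.1, aligned them with STAR 2.4.5a to mm10 and used HTSeq to count reads on genes. The deposited values are raw counts. The annotation version and strand setting are not given in the sources used here. Between 38.4% and 40.4% of reads were tallied outside genes and left out.

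Genotypes came from the labels. Genes with CPM above 1 in at least 1 of the 7 libraries were tested with edgeR 4.0.16 (TMM, robust quasi-likelihood fit, R 4.3.3), and p-values were adjusted over all genes tested. The methods of the study describe limma-voom, which was an alternative, as were DESeq2 1.42.0 and other choices named in the closing section. The fit with the sex of the embryo was added after seeing the data. Levels are log2 CPM with a prior count of 2. On simulated counts of 13705 genes for 3 against 4 libraries, of which 195 were changed, edgeR recovered 89.8% of genes changed 4-fold and 58.8% of those changed 2-fold. It also called 9 unchanged genes. The simulation held no library that stood apart from its group and no effect of title number or suffix, so these rates may not hold for the real libraries. Every replicate pair differed beyond counting noise (chi-square over its degrees of freedom at least 28.5).

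The members and gene lists were chosen with earlier results of these data known. Named genes are Sp3 and Sp1, the 12 largest rises and the 12 largest falls among called genes without overlap and with a mean above 2 log2 CPM (unnamed models passed over), up to 3 called genes a list, the genes the study discusses, and the markers of other cell types. Further members of lists are named to give the range of a list and were chosen after their values were seen. Older symbols were matched through RefSeq. The number of libraries limits the precision, and WT libraries are given as values only. Values of some listed genes are not reported here.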

Additional observations from a re-analysis of the deposited data

Results flagged for a closer look

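Among the 4 Sp3+/- libraries, 1 stood far from the other 3 in 19 of 137 values examined, and chance alone would mark about 1 in 20 independent values. These values come from the same 4 libraries and include means over lists of genes, so they are not independent. The number flagged is therefore not a test against chance. The measure is the gap to the nearest library over the whole range of the group, held against Dixon's critical value at 95% for 4 samples. In all but 1 of the 19 the library was 697-4. It was low for Eln (0.884), Rspo2 (0.838), Nsg1 (0.909), Cdc20 (0.930), Cdk1 (0.871), Fgf10 (0.844), Gli2 (0.882), Prrx1 (0.856), Thbs2 (0.852) and Erg (0.837). It was high for the myeloid and lipid genes Itgal (0.8294), Apoe (0.841), Slc11a1 (0.899), Cebpa (0.891), Fabp4 (0.855) and Tyrobp (0.834). The mean level of the elastic fibre list was low in 697-4 (0.893) and that of the lipid list was high (0.875). The exception was the mean of the Sp family, which was low in 468-3 (0.844). In each of the 18 values of 697-4 the library lay on the side of the Sp3-/- libraries.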

How the results depend on the processing

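Of 3227 called genes, 1619 were higher and 1608 lower. With the title suffix as a covariate 0 were called (0 higher, 0 lower), and with the suffix in all 11 libraries 763 (259 higher, 504 lower). Sp3 was then -1.71 with the suffix in 7 libraries (adjusted p = 0.0759, edgeR). With the sex of the embryo, an alternative chosen after seeing the data, 2047 genes were called and 884 of them were higher. Leaving out 1 library gave 924 to 3590 called genes, 354 to 1864 higher and 570 to 1816 lower, with the lowest counts without 697-2. Signs reversed with the suffix in 7 libraries for Thbs2 (0.0644) and Erg (0.164), and with the suffix in all 11 for Cdkn2a (-0.104), Cdk1 (0.108), Ccnb2 (0.0294) and Pecam1 (-0.0333). The cause was not tested. The longer GC box motif was in 10.4% of promoters. With the title number as a replicate block 2609 genes were called, 1414 higher and 1195 lower, and 77 of 100 named genes kept their call. The labels do not say what the number marks, and the main fit does not use it. Deviations of same-numbered libraries from their group means correlated at 0.29, 0.24, 0.04 and 0.35. For libraries of different numbers the correlations lay between -0.42 and 0.20. Whether the number marks a shared origin was not tested. DESeq2, limma-voom, other scalings, other filters and the fit with WT libraries kept 92 to 100 of the 100 named calls. Library 697-5 had the fewest reads, which limits its low counts.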
